A study of Mus musculus with 6 samples.

Results

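The core pluripotency transcription factors are 10 genes (Pou5f1, Nanog, Sox2, Esrrb, Tfcp2l1, Tbx3, Prdm14, Nr0b1, Zfp42 and Zscan10) out of 34433 gene symbols in the authors' deposited Cuffdiff table. They were found by symbol, and each of the 10 symbols had a single entry in the table, so no choice between entries was needed. All 10 were read in motor neurons (MNs) derived from mouse embryonic stem cells (mESCs) by RNA-Seq, with 3 samples per genotype and 6 in all. The control line, Hb9, is wildtype at the mouse Smn gene. The A2 SMA line carries the genotype SMN2+/+;mSmn-/-, in which mouse Smn is lost and the human SMN2 transgene is kept, and models severe spinal muscular atrophy (SMA). The study's methods give the SMN2 transgene to both lines, and the labels give both the FVB/N background. Embryoid bodies were treated for 5 days with 1 µM retinoic acid (RA) and 1 µM Smoothened agonist, which stands in for Sonic hedgehog. Cells positive for eGFP under the Hb9 promoter were then collected by FACS. Each genotype is 1 mESC line, so the genotype and other differences between the lines cannot be told apart.

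Pou5f1 (Oct4), Nanog and Sox2 form the regulatory centre of the pluripotent state. Pou5f1 and Sox2 bind neighbouring DNA motifs together, and with Nanog they maintain their own expression and that of a wider naive network to which Esrrb, Tfcp2l1, Tbx3, Prdm14 and Nr0b1 belong. Zfp42 (Rex1) and Zscan10 are zinc finger factors used as markers of the undifferentiated state. When mESCs are directed towards MNs with RA the network is normally shut down, with the exception of Sox2, which neural progenitors continue to express until they leave the cell cycle.

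Promoter sequence was looked at first, because Pou5f1 and Sox2 bind a joined Sox and octamer motif and promoter sequence was available for most members. Windows of 250 bases before an annotated start were taken from RefSeq (build GRCm38.p6, which is not the build of the expression table) and were found for 8 of the 10 genes in 11 windows. Tbx3 and Prdm14 had no window. The letters searched on both strands were ATGCAAA (octamer), CATTGT (Sox), the joined form CATTGTNATGCAAA, which contains both of the others, TCAAGGTCA (Esrrb type) and GGGNGTGG (Klf type). The promoters that hold the octamer letters are printed 5′ to 3′ on the strand of the gene, with the octamer and Sox letters in capitals. Nanog lies at chr6:122707239-122707488 (plus strand), Sox2 at chr3:34649745-34649994 (plus strand) and Zfp42 at chr8:43307010-43307259 (minus strand).
Nanog: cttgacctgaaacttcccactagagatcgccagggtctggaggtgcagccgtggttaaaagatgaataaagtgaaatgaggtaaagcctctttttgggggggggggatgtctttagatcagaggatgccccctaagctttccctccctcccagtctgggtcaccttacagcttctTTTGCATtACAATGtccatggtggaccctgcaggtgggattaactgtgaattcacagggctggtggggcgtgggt
Sox2: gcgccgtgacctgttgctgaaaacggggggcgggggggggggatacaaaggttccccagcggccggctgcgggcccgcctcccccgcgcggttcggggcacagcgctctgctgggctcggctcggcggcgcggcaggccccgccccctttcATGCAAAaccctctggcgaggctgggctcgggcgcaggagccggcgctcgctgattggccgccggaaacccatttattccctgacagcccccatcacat
Zfp42: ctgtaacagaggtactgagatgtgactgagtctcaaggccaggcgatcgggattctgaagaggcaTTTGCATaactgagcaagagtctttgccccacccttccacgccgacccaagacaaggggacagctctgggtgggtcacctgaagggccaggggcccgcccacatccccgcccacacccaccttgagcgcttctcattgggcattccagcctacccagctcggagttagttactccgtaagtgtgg

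The joined Sox and octamer letters were in 2 of the 32851 promoter windows searched (0.00609%), and both windows belong to Nanog, whose 2 annotated starts lie close together. In the printed window the joined motif runs from 75 to 62 bases before the start. The octamer letters alone were found in 4.12% of all windows and in those of Nanog, Sox2 (99 to 93 bases before the start) and Zfp42 (185 to 179 bases before it). Sox letters were in 10.7% of all windows and in those of Nanog and of the second annotated start of Pou5f1. The Klf type was held by 15.9% of all windows and by those of Nanog, Pou5f1, Tfcp2l1 and Zfp42. The Esrrb type was in 0.387% of all windows and in none of the 11. A match describes the letters in the window and not a bound site, and these 3 octamer promoters belong to genes with different readouts in the comparison that follows.

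The table gives 1 FPKM value (fragments scaled to the length of the transcript and to the number of mapped fragments) per genotype, combined by Cuffdiff from the 3 samples. No value of a single sample was available, so no SD is given, no test was made and differences carry no replicate check. The number of reads behind each value is not in the table. A gene was called at a difference of at least 2-fold, which is 1 on the log2 scale. Genes entered the comparison if neither value was 0 and the larger value reached 1 FPKM. Over the 14926 genes that did, the median log2 ratio of A2 SMA over Hb9 control MNs was -0.29, with 65.9% of genes lower in A2 SMA MNs. Log2 ratios relative to that median are therefore higher by 0.29 and are given as relative values. Smn1, the targeted gene, was at 137 FPKM in the Hb9 line and at 5.26 FPKM in the A2 line.

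The labelled cell type was checked against its markers. Mnx1, the gene of the sorting reporter's promoter, was at 41.2 FPKM in Hb9 control and 44.2 FPKM in A2 SMA MNs. Other defining MN genes were lower in A2 SMA MNs, several of them under 1 FPKM. Isl1 was at 108 and 5.95 FPKM, Ret at 16.7 and 3.31 FPKM and Isl2 at 6.85 and 1.15 FPKM. Lhx3 was at 27.6 and 0.348 FPKM, the acetylcholine-synthesising enzyme gene Chat at 15.5 and 0.344 FPKM, and the proneural factor gene Neurog2 at 19.9 and 0.225 FPKM. Of the 9 MN markers found by symbol, 5 were under 1 FPKM in A2 SMA MNs and 1 in Hb9 control MNs, and their summed level was 253 FPKM in Hb9 control and 56.1 FPKM in A2 SMA MNs. In these bulk samples fewer cells of a type and less RNA per cell cannot be told apart. What part such a difference in MN markers has in the values of the pluripotency factors was not tested.

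All 10 factors were higher in A2 SMA MNs than in Hb9 control MNs, and 8 of the 10 were at least 2-fold higher. Over all 14926 genes, 6.83% were at least 2-fold higher and 22.4% at least 2-fold lower, and none of the 10 was in the second class. All 10 were above 1 FPKM in both genotypes, so none entered through 1 genotype alone. The median log2 ratio of the 10 genes was 2.51 (relative value 2.80), against -0.29 over all genes, and 7 of the 10 were at least 4-fold higher, beside 1.8% of all genes. Relative to the median gene the count at 2-fold became 9, beside 10.4% of all genes, because Tbx3 passed the limit. The study drew attention to pluripotency genes on these same samples, so the direction of the list is not independent evidence. Summed over the 10 genes the Hb9 level was 397 FPKM and the A2 level 1665 FPKM, a 4.19-fold difference, and without Sox2 it was 219 and 1468 FPKM, a 6.71-fold difference.

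**Figure D1:**
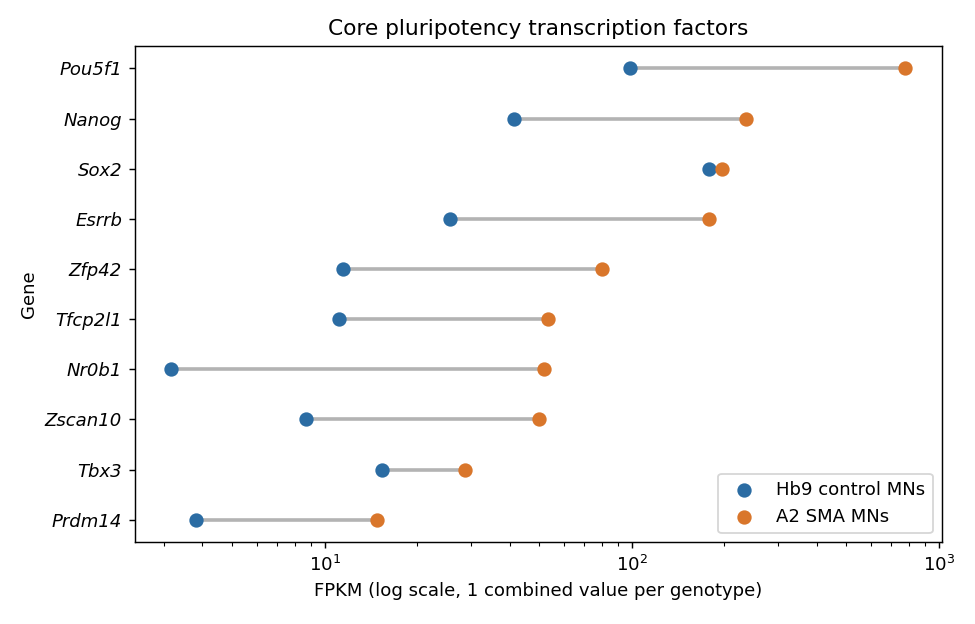
FPKM of the 10 core pluripotency transcription factors in Hb9 control MNs (blue) and A2 SMA MNs (orange) on a log axis, with 1 combined value per genotype and therefore no error bar. The A2 SMA value lies to the right of the control value for all 10 genes, with the points of Sox2 (179 and 197 FPKM) nearly touching and those of Nr0b1 (3.17 and 51.6 FPKM) farthest apart.

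Pou5f1, the POU-domain factor that ESCs cannot do without, was at 98.3 FPKM in the control and reached 775 FPKM in A2 SMA MNs. The ratio was 7.89-fold, or 2.98 on the log2 scale (relative value 3.27). Its level was above that of 90.5% of genes in the control and of 99.8% in A2 SMA MNs, so the transcript was already among the more abundant ones in the control cells. Its position in NCBI m37, the build of the table, is chromosome 17 from 35642982 to 35647721. Over the 2 genotype values the nearest gene by the Euclidean distance of log2 FPKM was Upp1 (uridine phosphorylase) at 0.982, with 169.6 and 516 FPKM, and the next was Pfkp (a phosphofructokinase) at 1.19.

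Nanog, the homeobox factor that sustains self-renewal, had 41.4 FPKM in Hb9 control and 236 FPKM in A2 SMA MNs, on chromosome 6 from 122657507 to 122664651. This was a 5.69-fold difference (log2 ratio 2.51, relative value 2.80). Its level was above that of 73.2% of genes in the control and of 98.3% in A2 SMA MNs. The genes nearest to it over the 2 values were Manba (52.0 and 227 FPKM) at a distance of 0.332 and E130012A19Rik (50.9 and 203 FPKM) at 0.368.

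Sox2, the HMG-box partner of Pou5f1, was the exception in the triad. It had 179 FPKM in Hb9 control and 197 FPKM in A2 SMA MNs, a ratio of 1.10 (log2 ratio 0.14, relative value 0.43). In the control it was the most abundant of the 10 factors, and in A2 SMA MNs it was the third, behind Pou5f1 and Nanog. Its log2 ratio was above that of 72.8% of genes, whereas those of the other 9 factors were above 92.2% or more. Galk1 (177 and 202 FPKM, distance 0.0397) and Eif3d (183 and 193 FPKM, distance 0.052) were nearest to it, which are genes of galactose metabolism and of translation initiation.

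The make-up of the triad therefore differed between the genotypes. For each FPKM of Pou5f1 the control held 1.82 FPKM of Sox2 and A2 SMA MNs held 0.254 FPKM. Nanog had 0.421 FPKM per FPKM of Pou5f1 in the control and 0.304 in A2 SMA MNs. Of the other factors, Nr0b1 had the larger proportion to Pou5f1 in A2 SMA MNs (0.0323 and 0.0666). The others had the smaller one there, from Esrrb (0.26 and 0.231) and Zfp42 (0.117 and 0.103) through Zscan10 (0.0882 and 0.0641), Tfcp2l1 (0.113 and 0.0689) and Prdm14 (0.0387 and 0.019) to Tbx3 (0.156 and 0.037). Sox2 held 44.9% of the summed FPKM of the 10 genes in the control and 11.8% in A2 SMA MNs, while Pou5f1 held 24.7% and 46.6%.

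**Figure D2:**
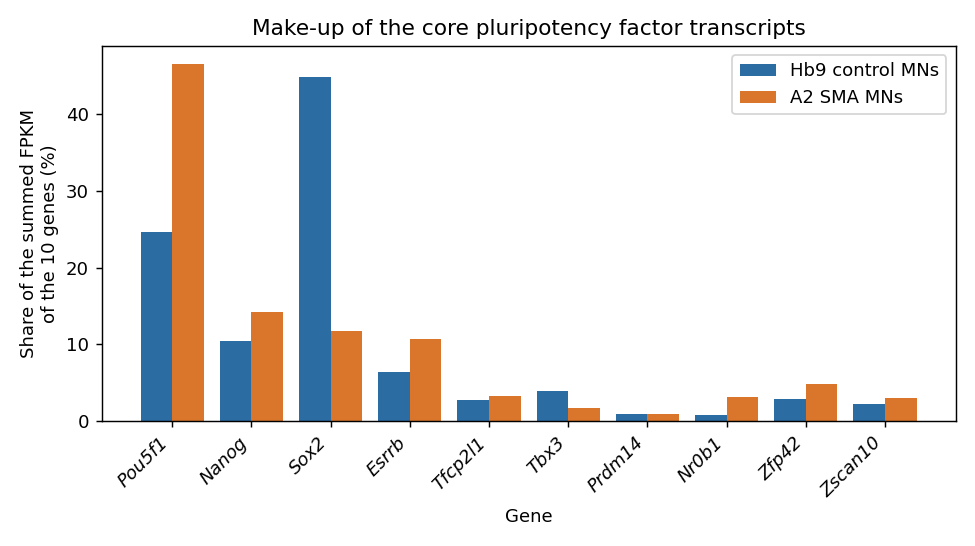
Share of the summed FPKM of the 10 genes that each gene takes, in Hb9 control MNs (blue bars) and A2 SMA MNs (orange bars), in percent from 0, with 1 combined value per genotype. Sox2 has the tallest control bar (44.9%) and Pou5f1 the tallest A2 SMA bar (46.6%), and Tbx3 is the other gene whose share is clearly smaller in A2 SMA MNs (3.87% and 1.72%).

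The 5 factors of the naive network were also higher in A2 SMA MNs, over a wide range of ratios. Nr0b1 (Dax1), an orphan nuclear receptor without a classical DNA-binding domain that interacts with Pou5f1, had the largest ratio of the 10. It had 3.17 FPKM in Hb9 control and 51.6 FPKM in A2 SMA MNs, a 16.3-fold difference (log2 ratio 4.02, relative value 4.31), and 21 of the 14926 genes had a larger ratio. It was the least abundant of the 10 factors in the control and the seventh in A2 SMA MNs, and it is the member located on the X chromosome (83437102 to 83441286).

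Esrrb, an orphan nuclear receptor and a target of Nanog, had 25.6 FPKM in Hb9 control and 179 FPKM in A2 SMA MNs, a 6.99-fold difference (log2 ratio 2.81) on chromosome 12 from 87702067 to 87862632. Its entry has the Cuffdiff status FAIL, which marks a numerical failure in the authors' comparison, as have 14.0% of the 14926 genes. It is the single member with that status, and without it 7 of 9 factors were at least 2-fold higher. Tfcp2l1, a factor of the CP2 family downstream of LIF and Stat3, had 11.1 FPKM in Hb9 control and 53.4 FPKM in A2 SMA MNs, a 4.82-fold difference (log2 ratio 2.27). Its entry on chromosome 1 from 120524522 to 120581744 is shared with a U1 small nuclear RNA gene, so the value is not that of Tfcp2l1 alone.

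Prdm14, a PR-domain repressor that protects the naive state and takes part in germ cell specification, had 3.8 FPKM in Hb9 control and 14.8 FPKM in A2 SMA MNs, a 3.88-fold difference (log2 ratio 1.96). It was the least abundant of the 10 in A2 SMA MNs, at a level above 53.1% of genes. Its entry lies on chromosome 1 from 13103538 to 13117244. Tbx3, a T-box factor of ESCs that is also used in several embryonic tissues, had the smallest ratio after Sox2. With 15.4 FPKM in Hb9 control and 28.7 FPKM in A2 SMA MNs the difference was 1.87-fold (log2 ratio 0.90), under the 2-fold limit, but the relative value of 1.19 was above it. Tbx3 was the fifth of the 10 in the control and the ninth in A2 SMA MNs, on chromosome 5 from 120061272 to 120134733.

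The pair of zinc finger factors had like ratios. Zfp42, whose loss is among the first signs of exit from the naive state, had 11.5 FPKM in Hb9 control and 79.9 FPKM in A2 SMA MNs, a 6.95-fold difference (log2 ratio 2.80), on chromosome 8 from 44379274 to 44392545. Zscan10 (Zfp206), a SCAN-domain factor that works with Pou5f1 and Sox2, had 8.67 FPKM in Hb9 control and 49.7 FPKM in A2 SMA MNs, a 5.73-fold difference (log2 ratio 2.52). It lies on chromosome 17 from 23737823 to 23747987, on the same chromosome as Pou5f1 but far from it. Among the 3 genes with the octamer letters in the printed promoters, Nanog and Zfp42 were thus more than 5-fold higher in A2 SMA MNs, and Sox2 was within 2-fold.

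The wider pluripotency network was read from gene lists written from general knowledge. Of 24 other transcription factors of the network, 23 passed the filter, of which 13 were at least 2-fold higher in A2 SMA MNs and none 2-fold lower, beside 6.83% and 22.4% of all genes, and the median log2 ratio was 1.32. The most abundant were Utf1, a chromatin-bound ESC factor (59.8 and 357 FPKM, log2 ratio 2.58), and Mybl2, a Myb factor of cycling cells (58.3 and 262 FPKM, 2.16). Sall4, a partner of Pou5f1 and Nanog, had 63.8 and 159.9 FPKM (1.32), and the cell cycle regulator Hcfc1 had 119.8 and 127 FPKM (0.09). Gbx2, a Stat3 target, had the smallest log2 ratio of the list (-0.92). Of these 23 genes 7 have the status FAIL, and leaving them out made the count 8, beside 7.02% of all genes without that status, and the median 0.96.

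Among ESC-restricted effectors and surface markers, all 28 found by symbol passed the filter, with 22 at least 2-fold higher and none 2-fold lower, again beside 6.83% and 22.4% of all genes, and a median log2 ratio of 1.55. Lefty1, an inhibitor of Nodal signaling, had the largest log2 ratio (4.23, from 2.22 and 41.6 FPKM), and the fucosyltransferase gene Fut4 the smallest (-0.87). The most abundant were the glucose transporter gene Slc2a3 (996 and 1949 FPKM, log2 ratio 0.97), the corepressor gene Trim28 (1009 and 1897 FPKM, 0.91), Spp1 (225 and 638 FPKM) and Upp1 (log2 ratio 1.61). Of these, Slc2a3, Trim28 and Upp1 have the status FAIL. These genes were abundant in Hb9 control MNs too, so the name of the list does not mean that they are restricted to ESCs. In the whole list 10 of the 28 genes have the status FAIL. Leaving them out made the count of at least 2-fold higher genes 15, beside 7.02% of all genes without that status. The median log2 ratio was then 1.58, and still none was 2-fold lower. Because these genes were read in the same 2 values as the factors, the lists are set side by side without a test between them.

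Signals that feed the network were read next. Of 15 genes of the LIF and BMP pathways, which hold mESCs in self-renewal, none was at least 2-fold higher and 6 were at least 2-fold lower in A2 SMA MNs, with a median log2 ratio of -0.73 (relative value -0.44), beside 6.83% higher and 22.4% lower over all genes. The BMP targets Id1 (62.6 and 21.5 FPKM, log2 ratio -1.54) and Id3 (124 and 50.5 FPKM, -1.29) were both lower. Stat3, the transducer of LIF, which is also in the list of other factors, had 82.8 and 60.7 FPKM (-0.45), and the adaptor gene Gab1 had the largest log2 ratio of the list (0.42, from 53.6 and 72.0 FPKM). Relative to the median gene 2 of the 15 were 2-fold lower, beside 16.5% of all genes, so the count of lower genes depended on the scale and was then near that of all genes.

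**Figure D3:**
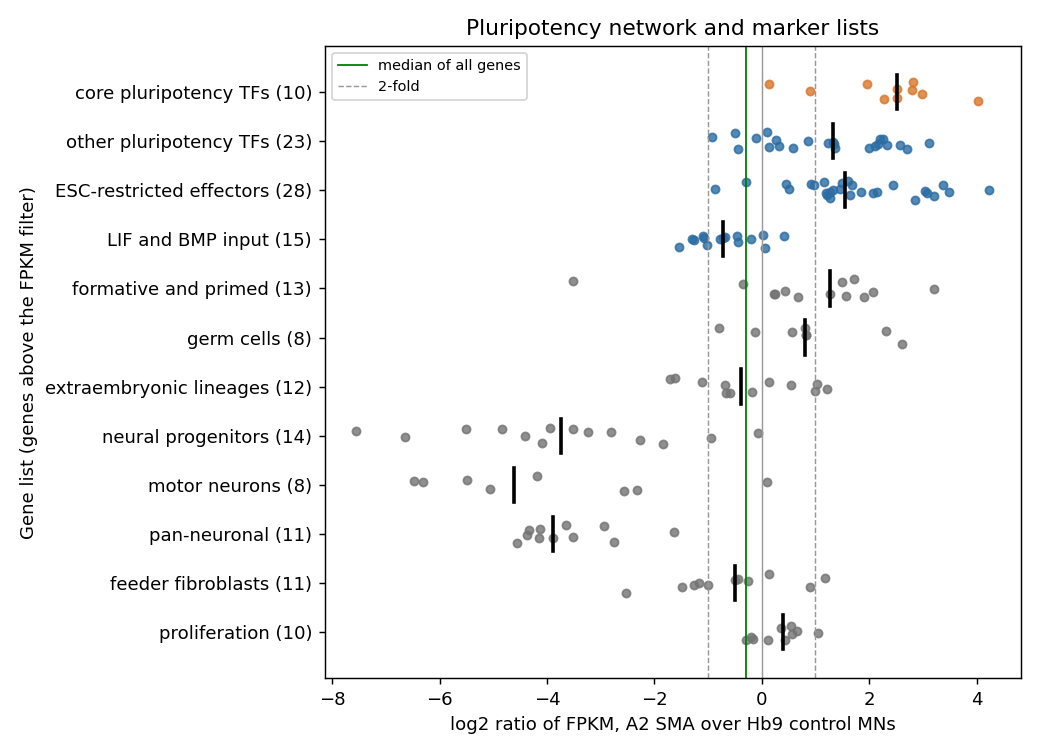
Log2 ratio of FPKM in A2 SMA over Hb9 control MNs for each gene that passed the filter, by list, with the number of genes in parentheses. Orange points are the 10 factors, blue points other pluripotency lists and grey points marker lists. Black bars are list medians, the green line is the median of all genes (-0.29) and dashed lines mark 2-fold. The factors have the rightmost median (2.51) and the 3 neural lists the leftmost (-3.74, -4.62 and -3.88, where the MN median of -4.62 becomes -3.59 with a pseudocount of 1 FPKM).

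Markers of other cells that the sort could hold were read beside the factors. Formative and primed pluripotency genes had 7 of 13 at least 2-fold higher, beside 6.83% of all genes, and 1 lower, with a median log2 ratio of 1.27. Of the 7, 2 passed the filter through the A2 value alone, and with at least 5 FPKM the count was 4 and the median 0.56. The Wnt effector gene Lef1 had the largest (3.21, from 2.66 and 24.6 FPKM) and Sox3 the smallest (-3.52, from 57.5 and 5.01 FPKM), while the de novo methyltransferase genes Dnmt3a (132 and 157 FPKM) and Dnmt3b (20.2 and 48.6 FPKM) and the FGF-responsive gene Etv4 (21.3 and 59.8 FPKM) were among the most abundant. Germ cell genes, with which Pou5f1, Nanog and Prdm14 overlap in use, had 2 of 8 at least 2-fold higher, beside 6.83% of all genes. Both, Tfap2c (11.1 and 68.0 FPKM, log2 ratio 2.61) and Prdm1 (1.36 and 6.74 FPKM), have the status FAIL, so the count was 0 without that status, and it was 5 relative to the median gene, beside 10.4%. Dazl (67.6 and 119 FPKM), Kit (41.3 and 72.5 FPKM) and Ddx4 (11.8 and 20.9 FPKM) were within 2-fold, with Nanos3 lowest at a log2 ratio of -0.80. Extraembryonic markers had 2 of 12 at least 2-fold higher, beside 6.83% of all genes, and 3 lower, near the 22.4% of all genes. With a pseudocount of 1 FPKM 1 was higher, beside 4.38%. Ratios ran from Krt8 (log2 ratio 1.21) to Gata3 (-1.70, in an entry shared with 9230102O04Rik). Foxa2 had 55.9 and 18.2 FPKM, Krt18 26.3 and 53.3 FPKM, Dab2 35.3 and 31.2 FPKM and Gata4 16.9 and 10.7 FPKM. Cdx2, the trophectoderm factor that Pou5f1 represses in ESCs, was under 1 FPKM in both genotypes.

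Sox2 was also set beside the neural progenitor genes, since it is used in neural progenitors as well as in ESCs. Of 14 progenitor markers found by symbol, 12 were at least 2-fold lower in A2 SMA MNs, beside 22.4% of all genes, and none was higher, with a median log2 ratio of -3.74. Their summed level was 1351 FPKM in Hb9 control and 106 FPKM in A2 SMA MNs, and 4 of the 14 were under 1 FPKM in A2 SMA MNs. Of the 12, 3 passed the filter through the Hb9 value alone. Fabp7, a radial glial lipid-binding protein gene, had 553 and 5.52 FPKM, the ventral progenitor factor gene Nkx6-1 158 and 7.46 FPKM, Sox9 75.4 and 4.87 FPKM and Msi1 191 and 39.6 FPKM, the last in an entry shared with Gm13832. The log2 ratios ran from -7.55 for the Notch target Hes5 to -0.07 for Pax6. Sox3, the other member of the SoxB1 group read here, had a log2 ratio of -3.52, against 0.14 for Sox2. The part of the progenitor difference in the level of Sox2 was not tested.

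Pan-neuronal genes were at least 2-fold lower for 11 of 11 found by symbol, beside 22.4% of all genes and with 2 passing through the Hb9 value alone. They had log2 ratios from -4.56 for Nefm (359 and 15.2 FPKM) to -1.63 for Stmn2 (242 and 78.0 FPKM), with Nefl (297 and 17.0 FPKM) and Gap43 (241 and 11.9 FPKM) between them. In the MN list 7 of 8 were at least 2-fold lower, beside the same 22.4%, 4 of them passing the filter through the Hb9 value alone, and Mnx1 (log2 ratio 0.10) was not. Isl1 was the most abundant in the control, and the log2 ratio of Neurog2 was the smallest (-6.47). Fibroblast genes were read because mESCs were grown on fibroblast feeders. Of 11, 1 was at least 2-fold higher and 5 lower, beside 6.83% and 22.4% of all genes, and relative to the median gene 2 were higher and 2 lower, beside 10.4% and 16.5%. The 1 higher gene passed the filter through the A2 value alone, and 2 of the 5 lower ones through the Hb9 value alone. The summed level of the 11 genes was 156 FPKM in the control and 184 FPKM in A2 SMA MNs, but without Fn1 the other 10 genes summed to 81.9 and 46.1 FPKM. Fn1 (74.5 and 138 FPKM) was the most abundant, before Col1a2 (20.1 and 8.93 FPKM), Col1a1 (18.9 and 9.41 FPKM) and Col3a1 (15.9 and 6.57 FPKM), and the log2 ratios ran from -2.53 for Postn to 1.18 for Thy1. Of 10 proliferation genes 1 was at least 2-fold higher (Mcm3, 118 and 244 FPKM), near the 6.83% of all genes, and the median log2 ratio was 0.39. Cdk1 had 213 and 335 FPKM, Mcm2 122 and 181 FPKM, and Top2a, in an entry shared with a small nucleolar RNA gene, 384 and 334 FPKM, with Mki67 lowest at a log2 ratio of -0.29.

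The neighbourhood of each factor was read within 100 kb of its entry. Positions in the table are those of the assembled locus, which several genes can share. Among 32 genes with a symbol that passed the filter near the 10 factors, 5 were at least 2-fold higher and 4 at least 2-fold lower in A2 SMA MNs, with a median log2 ratio of -0.08, beside 6.83% and 22.4% of all genes. Of these, 3 of the 5 passed the filter through the A2 value alone and 3 of the 4 through the Hb9 value alone. Of 15 loci without a symbol, 8 were higher and 4 lower, beside 798 and 969 of 4289 such loci in the whole table. Here 4 of the 8 passed through the A2 value alone and 3 of the 4 through the Hb9 value alone, so that their direction was set by the filter and nothing is read from these counts. Neighbours of 1 factor are not independent of each other.

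Around Nanog 6 neighbours, with or without a symbol, passed the filter. Of these 3 were at least 2-fold higher, beside 6.83% of all genes, and 3 were within 2-fold. Gdf3, a TGF-beta ligand of ESCs, had 9.74 and 70.4 FPKM (log2 ratio 2.85), and Dppa3 (Stella), a maternal and ESC factor, had 5.71 and 13.7 FPKM (1.27). These genes share a locus that ends 73914 bp from Nanog, and an unnamed locus 63020 bp from it had 2.93 and 14.5 FPKM. Slc2a3, 13176 bp to the other side, had a log2 ratio of 0.97. Foxj2 at the edge of the window (9.91 and 7.21 FPKM) and Gm4482, in the locus of Slc2a3 (1.51 and 0.928 FPKM), were lower in A2 SMA MNs but within 2-fold.

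At Sox2 an overlapping transcript differed from the gene. The entry of Sox2 covers chromosome 3 from 34003360 to 34581541, a span of 578182 bp that it shares with the entry of Sox2ot, the long noncoding RNA in whose intron Sox2 lies, together with Mir1897. Sox2ot had 15.4 FPKM in Hb9 control and 2.7 FPKM in A2 SMA MNs, 5.72-fold lower (log2 ratio -2.52). The nearest locus without a symbol beyond the end of this span, 2921 bp away, had 10.8 and 1.49 FPKM (log2 ratio -2.86). The other 3 that passed the filter there, with 1.96 and 0.407, 1.47 and 0.327, and 1.43 and 0.247 FPKM, passed through the Hb9 value alone and had to be lower in A2 SMA MNs. Because Sox2 and Sox2ot overlap, reads of the shared stretch may have been divided between them, and the value of either is uncertain to that extent. Fxr1 (144 and 176 FPKM) and Dnajc19 (4.44 and 3.15 FPKM) on the other side were within 2-fold.

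**Figure D4:**
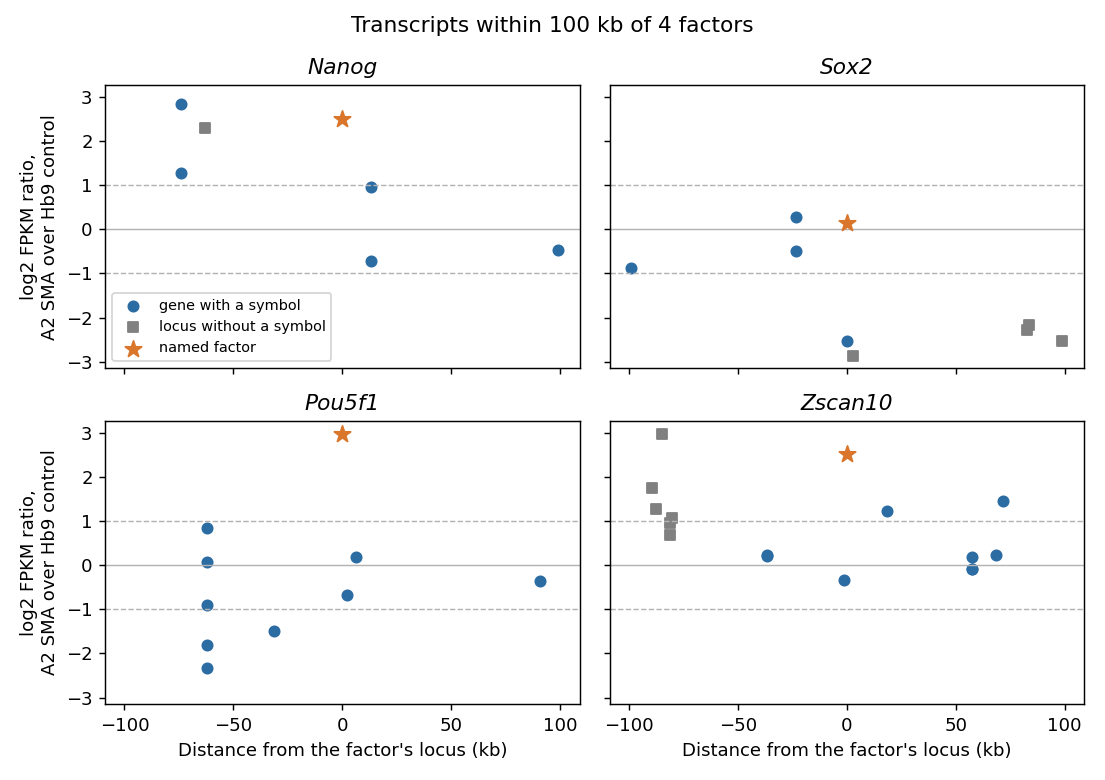
Log2 ratio of FPKM in A2 SMA over Hb9 control MNs for transcripts within 100 kb of Nanog, Sox2, Pou5f1 and Zscan10, against the distance in kb from the edge of the factor's locus (negative at lower coordinates). Stars are the factors at distance 0, blue circles genes with a symbol, grey squares loci without one, and dashed lines mark 2-fold. Around Sox2 the star is near 0 while Sox2ot lies at -2.52, with 4 unnamed loci under -2 of which 3 passed the filter through the Hb9 value alone, and next to Pou5f1 (star at 2.98) no neighbour is above 1.

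Next to Pou5f1 no other gene was 2-fold higher. Tcf19, whose locus begins 1958 bp from it, had 13.9 and 8.73 FPKM, and Cchcr1, 6264 bp away, had 14.8 and 16.8 FPKM. Of the 9 neighbours that passed the filter 3 were at least 2-fold lower, H2-Q6 (log2 ratio -2.34), Gm18734 (-1.82) and H2-Q10 (-1.49), beside 22.4% of all genes. All 3 were under 3 FPKM in the control and passed the filter through the Hb9 value alone, so they had to be lower. The H2-Q genes are closely similar genes within the major histocompatibility complex, and their reads may be split among them. Gm18733, a gene in the same span, had 1.37 FPKM in the control and was listed at 0 in A2 SMA MNs. Near Zscan10 the abundant genes Thoc6 (69.9 and 79.0 FPKM) and Cldn6 (30.6 and 35.5 FPKM) were within 2-fold, and the low genes Mmp25 (0.548 and 1.28 FPKM) and Cldn9 (0.631 and 1.72 FPKM) passed the filter through the A2 value alone, which fixed their direction. An unnamed locus of 126 bp there had 14.3 and 111 FPKM. Another of 210 bp, 72490 bp from Prdm14, had 3.5 and 44.6 FPKM (log2 ratio 3.67), although Ncoa2 on the other side was within 2-fold (58.3 and 45.1 FPKM). FPKM of loci this short rest on few positions. In the span of Tbx3, Gm2301 had 0.492 and 2.61 FPKM (log2 ratio 2.40) and likewise passed through the A2 value alone. Near Esrrb, Tfcp2l1 and Nr0b1 a single gene with a symbol passed the filter in each case, and it was within 2-fold. Zfp42 had no such neighbour.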

How the data were processed

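RNA from eGFP-positive MNs of the Hb9 control and A2 SMA lines was sequenced in 3 samples per genotype. Per the study's methods, the authors checked reads with FastQC 0.10.1, trimmed them with CutAdapt, mapped them to NCBI m37 with TopHat (2.04) and the Ensembl annotation, assembled transcripts with Cufflinks and compared genotypes with Cuffdiff. The authors deposited 1 FPKM value per genotype for 41945 genes and loci. Columns with the authors' fold change, test statistic, p, q and significance were not used, and the status column was used as a flag of quality. The deposited table gives no reads per gene, so the precision of a value could not be computed.

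Values were handled in Python 3.11.15, numpy 2.4.6 and pandas 2.3.3, and plotted with matplotlib 3.10.9. Each symbol took its entry with the highest FPKM, entries shared by several symbols counted once over all genes, and log2 ratios had no pseudocount. Starts are 1-based. The code was tested on simulated data. The 10 genes and all lists were chosen with earlier results of these data known. Named are the 10 factors, Smn1, of each other list the 4 most abundant genes and those with the largest and smallest ratio, genes within 100 kb that differ at least 2-fold, and the 2 genes nearest to each of Pou5f1, Nanog and Sox2. One gene that this rule names is not reported here. Chat, Ret, Isl2, Prdm1, Cdx2, Gm18733, neighbours within 2-fold and the loci without a symbol were named after their values were seen. Of the listed symbols, Otx2os1, Sox1, Slc18a3, Tubb3 and Map2 had no match and were not analysed here. Alternatives were pseudocounts of 0.1 and 1 FPKM, scaling to the median gene or the upper quartile, summed entries, leaving out the status FAIL, filters of 0 and 5 FPKM, limits of 1.5-fold and 4-fold, and windows of 50 and 200 kb.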

Additional observations from a re-analysis of the deposited data

How the results depend on the processing

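Across the alternatives 59 log2 ratios of the 10 factors were computed and all 59 were above 0. That followed from the main reading and is no check of the direction. A pseudocount cannot change the sign, and both scalings raised every ratio. Each factor has a single entry, so summing entries changes nothing, and leaving out the status FAIL only removes Esrrb. Scaling moved 1 factor over the 2-fold limit. Tbx3 had a log2 ratio of 1.19 relative to the median gene and of 1.27 after scaling to the upper quartile. The count of factors at least 2-fold higher stayed between 7 and 9 under every alternative, and their median log2 ratio between 2.44 and 2.88. Of all 14926 genes, 10.4% were at least 2-fold higher and 16.5% lower relative to the median gene, in place of 6.83% and 22.4%. After scaling to the upper quartile the shares were 11.8% and 15.2%. They were 7.02% and 23.4% without the status FAIL, and 4.81% and 20% with at least 5 FPKM. At a 4-fold limit 8.88% of all genes were lower. Among LIF and BMP genes, the number at least 2-fold lower changed from 6 to 2 relative to the median gene, to 1 with the upper quartile and to 0 with a 4-fold limit, and their median log2 ratio was -1.02 when genes with the status FAIL were left out. The other transcription factors of the network had 8 genes at least 2-fold higher in place of 13, and a median of 0.96, when the status FAIL was left out. A 1.5-fold limit gave 1 lower gene in that list and 1 among the ESC effectors, where none was 2-fold lower, beside 35.4% of all genes. A 4-fold limit left 10 higher effectors in place of 22, beside 1.8% of all genes. Genes near the factors, 5 higher and 4 lower in the main reading, were 2 and 2 within 50 kb, 10 and 10 within 200 kb, and 2 and 1 with at least 5 FPKM. The number of genes differs between these windows and filters, so the counts are not shares and nothing is read from them. Among marker lists, germ cell genes at least 2-fold higher were 5 in place of 2 after either scaling and 0 without the status FAIL, fibroblast genes at least 2-fold lower were 2 in place of 5 after either scaling, and formative and primed genes at least 2-fold higher were 4 in place of 7 with at least 5 FPKM, where their median log2 ratio was 0.56. The median of the MN markers was -3.59 in place of -4.62 with a pseudocount of 1 FPKM. Apart from these effects of fewer genes tested or another scale, the cause of a change was not tested. Leaving out a sample was not possible, because the table holds 1 combined value per genotype. No paired analysis was possible because the columns carry no replicate numbers. The table gives no reads per gene, so the precision of low values such as those of Prdm14 and Nr0b1 in Hb9 control MNs cannot be given.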
